A study of Homo sapiens with 10 samples.

Results

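The peaks described here are the 10807 regions in the lists of histone H3 lysine 27 trimethylation (H3K27me3) peaks, 6003 from control cells (CT) and 4804 from cells with knockdown of CGGBP1 (KD). They are 10807 of the 332957 peaks that the series lists for CTCF, 3 histone marks and input on unmasked reads. All peaks of both lists were taken, a peak counted as shared when it overlapped a peak of the other list by at least 1 bp, and as input-free when it overlapped no input peak. The lists were compared in number, width, chromosome, gene feature and distance to genes and to CTCF peaks.

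H3K27me3 is written by Polycomb repressive complex 2, whose catalytic subunit is EZH2 or EZH1, and is read by Polycomb repressive complex 1. It is best known for holding developmental genes silent, among them the HOX clusters, and in somatic cells it commonly spreads over broad domains. CGGBP1 is a nuclear protein that binds CGG-rich and other repetitive DNA, and CTCF is a zinc finger protein that binds insulators and domain boundaries. The study measured histone marks to ask whether their pattern around CTCF binding sites depends on CGGBP1.

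Both libraries came from HEK293T, a transformed human embryonic kidney line carrying SV40 large T antigen. CT cells carried a lentiviral non-targeting shRNA and had endogenous CGGBP1, and KD cells carried a lentiviral shRNA against CGGBP1. Per the labels both were selected with puromycin. Each condition had 1 library sequenced without barcodes on an Ion Torrent S5, so no test between KD and CT is possible, and every difference below is one between these libraries. The study lists fewer H3K27me3 reads for KD than for CT, and a difference in depth cannot be told apart from one in condition. The sample labels and the study's methods name opposite antibodies for H3K27me3 and H3K9me3, and the lists are called here by the mark in their titles. The cells from which the single input library came are not given in the sources used here.

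The mark named in the titles was checked against genes that H3K27me3 is known to cover. In the CT list 2.93% of the 20046 protein-coding genes had an input-free peak in the gene or within 2500 bp of it, and in the KD list 1.73% did. None of the 39 HOX cluster genes, which pattern the body axis, had one in either list, which allows a share of up to 7.69%, taking 3 genes of the total as the limit for a count of 0 here and below. Of 94 other developmental transcription factor genes, 3 had one in CT, a share of 3.19% near that of all genes, and 0 had one in KD, which allows up to 3.19%. The 3 were LHX3, POU4F1 and SOX21, which specify pituitary cells, sensory neurons and neural progenitors. Among 35 housekeeping genes 0 had one in either list, which allows up to 8.57%. H3K4me3, the mark of active promoters, covered 37 of the HOX genes in CT and 36 in KD by the same measure, and 81.8% and 82.8% of all protein-coding genes. H3K9me3, the mark whose antibody the sources exchange with that of H3K27me3, covered 4 and 3 of the HOX genes, and 18.1% and 8.04% of all protein-coding genes. The lists thus do not mark the HOX clusters, and "H3K27me3 peak" below means a peak of the list with that title.

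Most peaks lay in repeated DNA, many of them with a satellite motif, and a small group of unrepeated peaks near gene starts was listed in CT alone. Stretches of 180 bases of hg38 (forward strand) from 6 input-free peaks, chosen after their values were seen, show both kinds of sequence. The first 3 come from the widest peak of each class with a CENP-B box, the element of alpha satellite DNA that the centromere protein CENP-B binds, and are centred on the box (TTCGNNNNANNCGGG), which is in capitals. The other 3 come from the centres of peaks without a repeated base, and there every CG dinucleotide is in capitals.
Peak in both lists, chr7:58385739-58386264, bases 58385812 to 58385991: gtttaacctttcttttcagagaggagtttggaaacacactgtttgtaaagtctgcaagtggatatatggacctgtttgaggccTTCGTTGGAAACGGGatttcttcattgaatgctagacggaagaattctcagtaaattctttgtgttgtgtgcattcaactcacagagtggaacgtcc
Peak in CT only, chr18:16110079-16110700, bases 16110300 to 16110479: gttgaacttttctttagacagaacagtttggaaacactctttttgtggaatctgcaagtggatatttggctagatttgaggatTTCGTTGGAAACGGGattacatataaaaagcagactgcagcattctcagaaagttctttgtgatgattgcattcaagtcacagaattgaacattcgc
Peak in KD only, chr1:123872410-123872881, bases 123872636 to 123872815: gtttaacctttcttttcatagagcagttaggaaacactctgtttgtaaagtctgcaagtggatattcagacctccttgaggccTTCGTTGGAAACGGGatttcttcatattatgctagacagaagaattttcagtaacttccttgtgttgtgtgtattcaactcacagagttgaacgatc
Peak in CT only near the start of KCNN1, chr19:17951488-17951918, bases 17951613 to 17951792: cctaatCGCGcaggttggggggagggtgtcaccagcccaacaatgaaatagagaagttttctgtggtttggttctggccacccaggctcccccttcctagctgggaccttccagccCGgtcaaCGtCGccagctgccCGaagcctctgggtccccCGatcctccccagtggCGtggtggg
Peak in CT only near the start of POU4F1, chr13:78604151-78604449, bases 78604210 to 78604389: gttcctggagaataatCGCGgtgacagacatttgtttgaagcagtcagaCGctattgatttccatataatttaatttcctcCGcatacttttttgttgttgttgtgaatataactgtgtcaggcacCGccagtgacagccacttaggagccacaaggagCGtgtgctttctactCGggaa
Peak in KD only nearest to TPSAB1, chr16:1236173-1236517, bases 1236255 to 1236434: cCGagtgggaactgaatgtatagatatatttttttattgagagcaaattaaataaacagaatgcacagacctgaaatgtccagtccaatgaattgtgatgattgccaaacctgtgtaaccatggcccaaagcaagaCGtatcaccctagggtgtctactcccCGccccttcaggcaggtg
The satellite peaks are intergenic, and the median 24-mer in them has 2431, 2231 and 5980 copies in hg38. The same 15 letters fill the box in all 3 stretches. In the 3 other peaks the median 24-mer has 1, 1 and 2 copies. The stretches near KCNN1 and POU4F1 hold 8 and 7 CG dinucleotides in 180 bases, and the stretch near TPSAB1 holds 3.

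KD had 0.80 times as many peaks as CT. A KD peak overlapped 3702 CT peaks (61.7%, 95% interval 60.4 to 62.9), and a CT peak overlapped 3694 KD peaks (76.9%, 75.7 to 78.1). These and all later intervals are exact Clopper-Pearson intervals over peaks. They cover counting error only, and neighbouring peaks in a repeat array are not independent. Peaks that overlapped input were nearly all common to both lists: 1981 of the 2246 in CT and 1976 of the 2073 in KD. Among the input-free peaks, 1721 of 3757 CT peaks (45.8%, 44.2 to 47.4) and 1718 of 2731 KD peaks (62.9%, 61.1 to 64.7) were shared. That left 2036 input-free peaks in CT only and 1013 in KD only. Taken as bases rather than peaks, 31.2% of the sequence under input-free peaks of either list lay under both. Peaks on input held the CENP-B box more often (34.8% in CT and 34.0% in KD) than input-free shared peaks (23.8% and 22.4%). Peaks on input were also wider, with medians of 255 and 242 bp against 190 and 184 bp. A wider peak has more room for a match, and motif shares here and below were not corrected for width.

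**Figure D1:**
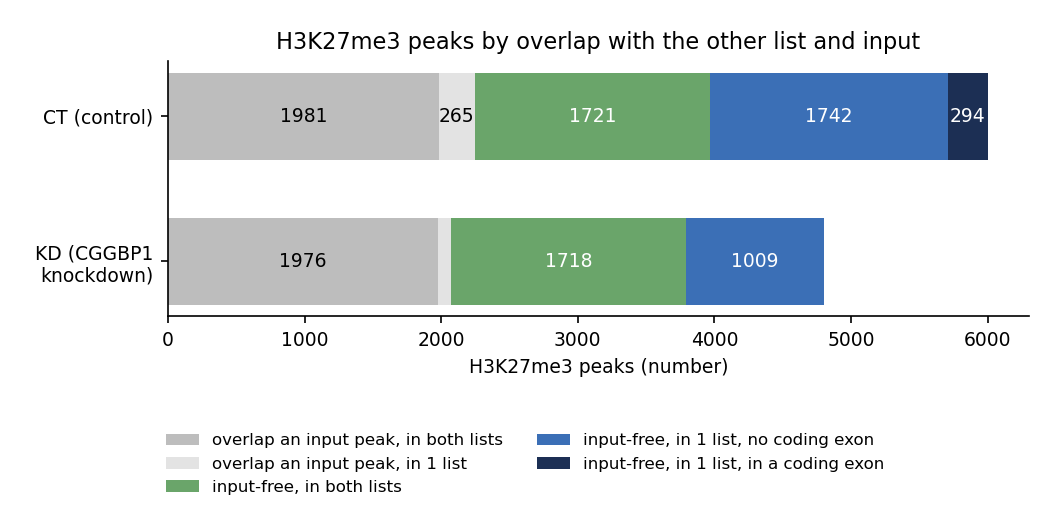
Number of H3K27me3 peaks (horizontal axis) in CT and KD, split by overlap with an input peak, with the other list and with a coding exon. The input-overlapping shared blocks are nearly equal (1981 and 1976), and the CT bar is longer through its 1742 and 294 input-free peaks found in 1 list.

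The CT list stood apart in coding exons. Of the 2036 input-free CT-only peaks, 294 (14.4%, 12.9 to 16) overlapped a coding exon, against 4 of the 1013 KD-only peaks (0.395%, 0.108 to 1.01) and 17 of the 1721 shared CT peaks (0.988%, 0.576 to 1.58). They lay in few genes: 56 genes had at least 1, and 26 genes with 3 or more held 258 of them. These 26 genes were chosen after their values were seen. Of the 258 peaks, 248 held no repeated base, their median width was 239 bp, and only 9 had their centre within 1 kb of a gene start.

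In the 26 genes, 274 of 648 coding exons (42.3%) had an H3K27me3 peak in CT and 0 had one in KD. The genes were chosen by their CT-only H3K27me3 peaks, so this difference restates the choice and is a description. In all other genes 80 of 212021 coding exons (0.0377%) had one in CT and 30 (0.0141%) in KD. The H3K4me3 lists, which the choice did not use, differed in the same exons: 289 (44.6%) had an H3K4me3 peak in CT and 28 (4.32%) in KD, whereas in other genes the shares were 6.68% and 6.99%. H3K9me3 peaks lay on 18 of the 648 exons in CT (2.78%) and 10 in KD (1.54%), also above the shares in other genes, 0.0656% and 0.0241%. CTCF peaks lay on 4 in each (0.617%), against 0.71% in CT and 0.981% in KD in other genes. Input peaks lay on 0. An H3K4me3 CT peak overlapped 206 of the 258 H3K27me3 peaks and an H3K4me3 KD peak overlapped 8. Per the study's methods the libraries were sequenced without barcodes. Reads from chromatin and reads of these exons from any other DNA in the 2 CT libraries, such as amplified or captured exons, cannot be told apart in the peak lists, so the coding-exon values are listed peaks and are not read as either mark. What sets these exons apart was not tested, and the comparisons of peak classes below give CT-only values without them or both ways.

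The gene with most such peaks was ATM, the kinase that signals DNA double-strand breaks. It had 45 CT-only peaks, and 50 of its 62 coding exons carried an H3K27me3 peak in CT. Genes of the repair of such breaks followed: BRCA2 had a peak on 17 of 31 coding exons, RAD50 on 18 of 29, BRIP1 on 15 of 29, BRCA1 on 12 of 27 and NBN on 14 of 20. PALB2 (9 of 14), RAD51C (9 of 13), BARD1 (7 of 13) and the checkpoint kinase gene CHEK2 (10 of 19) also belonged to the group. The kinase gene STK11 had one on 3 of 11. In addition, CDH1, which encodes the adhesion protein E-cadherin, had a peak on 14 of 16 coding exons. ERBB2, a receptor tyrosine kinase gene, had one on 12 of 29. CASP8, a protease of cell death, and TGFB1, a growth factor, had one on 8 of 11 and 6 of 7.

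Genes of muscle fibres or their matrix were also in the group. COL6A3, a collagen VI chain, had a peak on 9 of 44 coding exons, DYSF, the membrane repair protein dysferlin, on 10 of 61, LAMA2, a laminin chain, on 7 of 67 and CAPN3, a muscle protease, on 8 of 30. DAG1, which encodes dystroglycan, had 2 of 2 and ANO5 3 of 23. Also in the group, but not one of these muscle or matrix genes, was TRAPPC11 with 4 of 29. H3K4me3 in CT lay on 46 coding exons of ATM, 20 of BRCA2 and 27 of LAMA2, and in KD on 0, 1 and 8. No member of the group had an H3K27me3 KD peak on a coding exon.

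**Figure D2:**
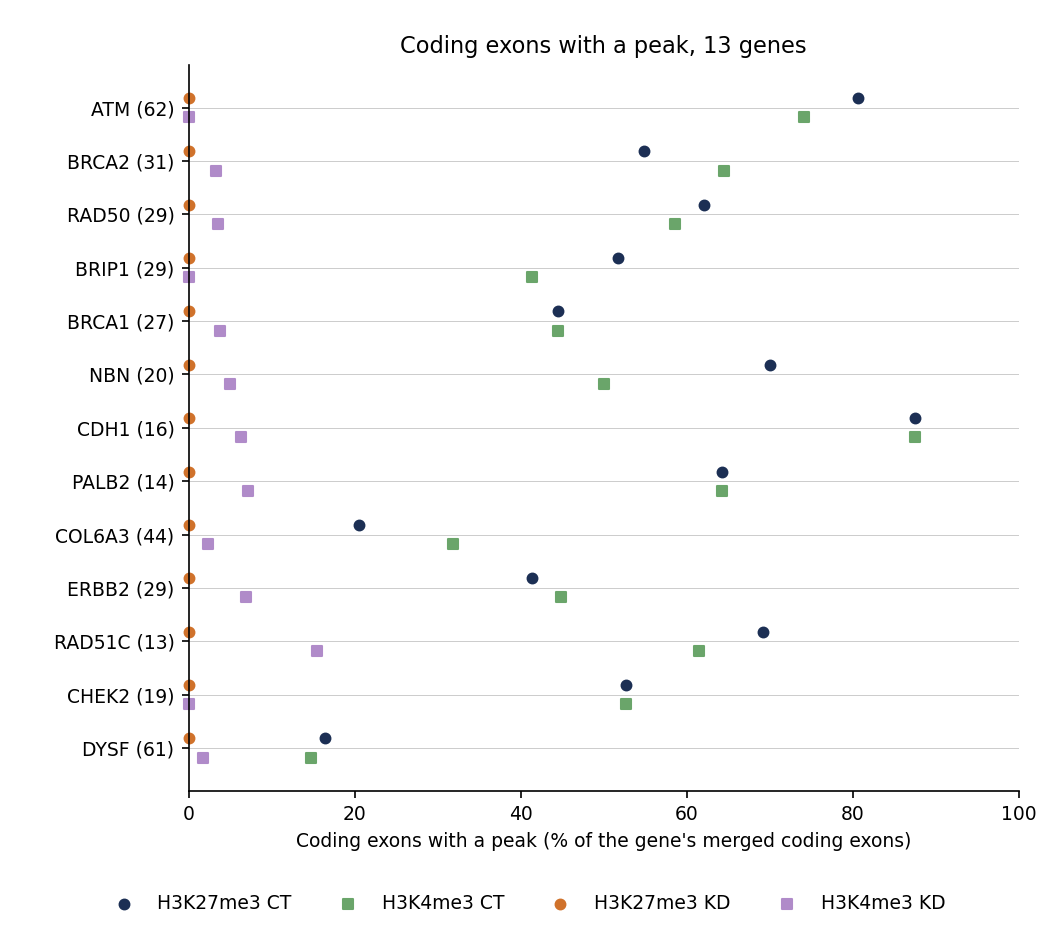
Percent of merged coding exons with a peak (horizontal axis) for the 13 genes with 8 or more input-free CT-only H3K27me3 peaks in coding exons, with the number of exons in brackets. Circles are H3K27me3 and squares H3K4me3; the H3K27me3 KD circles all sit at 0, and the CT symbols of both marks lie to the right of the KD symbols of the same mark in each gene.

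The peaks were narrow in both lists. The median width was 204 bp in CT and 197 bp in KD, the narrowest peaks were 150 and 146 bp, and 42 CT and 38 KD peaks were at least 1000 bp wide, 38 and 37 of them overlapping input. Input-free peaks had medians of 182 and 176 bp. KD-only peaks were the narrowest class, with a median of 162 bp against 175 bp for CT-only peaks (171 bp without coding exons) and 190 and 184 bp for shared CT and KD peaks. Where a peak of each list met only one of the other (3630 pairs), KD was wider in 1350, CT in 2239 and 41 were equal, with a median ratio of KD to CT of 0.963. The narrowest width also differed between the lists (150 and 146 bp), and its part in these width differences was not tested. The widths in 251 pairs differed by more than 1.5-fold, and in 1574 pairs both ends lay within 20 bp of each other.

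The narrowest peaks were shared less often than those of middle width. Of input-free CT peaks under 160 bp without a coding exon, 27.4% (24.3 to 30.6) were shared, against 59.3% (55.5 to 63.1) from 180 to under 200 bp and 63.0% (59.5 to 66.5) from 200 to under 250 bp. In KD the shares for the same widths, again without coding exons, were 43.8% (40.4 to 47.2), 73.3% (69.2 to 77.1) and 79.7% (76.1 to 83.1). From 250 to under 400 bp the shares were lower again, 50.2% (44.3 to 56.1) in CT and 61.5% (54.4 to 68.2) in KD. KD-only peaks lay a median of 8.80 kb from the nearest CT peak, and 22.5% of them lay beyond 100 kb. CT-only peaks lay a median of 42.6 kb from the nearest KD peak, or 19.5 kb without those in coding exons, and 35.7% of the latter lay beyond 100 kb. Within 1 kb of the other list were 11.7% (9.83 to 13.9) of the KD-only and 9.14% (7.92 to 10.5) of the CT-only peaks, or 10.6% (9.16 to 12.1) without coding exons.

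Both lists crowded into a few megabases. The 20 windows of 1 Mb with most CT peaks held 29.5% of the CT peaks, although 1444 windows had one. The 20 windows with most KD peaks held 34.0% of the KD peaks, although 1182 windows had one. The densest lay on chromosome 7, where chr7:59000001-60000000 had 136 CT and 115 KD peaks, with 100 input peaks. The window chr5:49000001-50000000 had 112 and 117, chr1:124000001-125000000 had 112 and 115, and chr19:25000001-26000000 had 118 and 108. Some of these windows thus held more KD than CT peaks, while the whole lists differed the other way. In the 20 windows with most peaks over both lists, 946 input-free CT and 859 KD peaks were listed, none of them in a coding exon. Of these, 53.7% (50.5 to 56.9) and 59.0% (55.6 to 62.3) were shared. In the rest of the genome, coding exons left out, 2500 CT and 1851 KD peaks remained, of which 47.8% (45.9 to 49.8) and 64.5% (62.3 to 66.7) were shared.

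By chromosome, the ratio of KD to CT peaks ran from 0.53 on chromosome 17 to 0.97 on chromosome 4, and on no chromosome did KD have more. Chromosome 19 had the most peaks per Mb, 5.48 in CT and 5.07 in KD. Chromosome 17 had 76 input-free CT-only peaks, but only 23 outside coding exons, against 16 KD-only peaks. On chromosome 11, which holds ATM, 57 of 105 CT-only peaks lay outside coding exons, and KD-only peaks numbered 66, so that the direction there turned without the coding exons. On chromosome 21 the CT-only peaks outside coding exons (67) exceeded the 19 KD-only peaks. Part of that excess lay in a lncRNA gene of the short arm, ENSG00000280441 (chr21:8380643-8454792), which held the centres of 25 input-free CT and 15 KD peaks outside coding exons, 14 of each shared. On chromosome 1, NBPF26, a gene of a recently duplicated family that overlaps NOTCH2NLR, held 7 CT centres and 1 KD centre, and none was shared. By the same count 410 genes held a centre in both lists, of 791 in CT and 540 in KD. Chromosomes 1 to 22, X and Y carried 92.8% of the CT peaks, and the rest lay on unplaced, unlocalized, alternate or mitochondrial sequence.

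**Figure D3:**
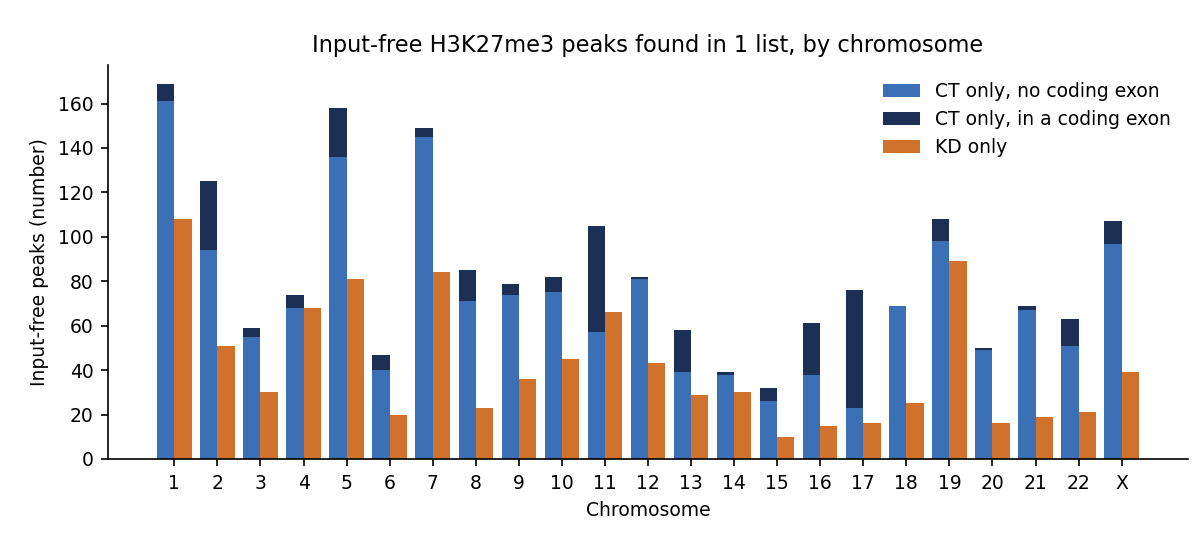
Number of input-free H3K27me3 peaks found in 1 list (vertical axis) on chromosomes 1 to 22 and X. The dark part of each CT bar is peaks in coding exons; on chromosomes 11 and 17 it takes 105 CT-only peaks down to 57 and 76 down to 23.

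Repeated bases, those within a 24-mer that has at least 10 copies in hg38, made up 78.7% of the bases under input-free CT peaks and 94.2% under KD peaks. Without coding exons the CT value was 88.2% and the KD value 95%. Under shared peaks the values were 95% in CT and 95.2% in KD. KD-only peaks had 92.3%, and CT-only peaks 64.7%, or 79.8% without coding exons. Peaks without any repeated base were therefore mostly a CT class: 534 input-free peaks in CT and 72 in KD. Outside coding exons 233 such peaks were found in CT only and 47 in KD only, and 15 in both. As a share of the input-free peaks outside coding exons found in 1 list, they were 13.4% (11.8 to 15.1) in CT and 4.66% (3.44 to 6.15) in KD. Unrepeated peaks were also the least often shared: 6.05% (3.42 to 9.78) of those in CT and 24.2% (14.2 to 36.7) of those in KD outside coding exons, against 55.1% (53.1 to 57.1) and 62.7% (60.7 to 64.8) of fully repeated peaks.

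The CENP-B box was found on either strand in 25.2% (24.1 to 26.3) of all CT peaks and 27.7% (26.5 to 29.0) of all KD peaks. It was found in 0.848% of all 200 bp windows of hg38. Among input-free peaks it was in 23.8% (21.8 to 25.8) of shared CT peaks, 23.9% (21.3 to 26.6) of KD-only peaks and 18.6% (16.8 to 20.5) of CT-only peaks outside coding exons. The pentamer of the classical satellites, repeated in tandem (CATTCCATTC, either strand), was in 2.17% (1.37 to 3.27) of KD-only and 0.402% of CT-only peaks outside coding exons (0.344%, 0.138 to 0.707, of all CT-only peaks), against 0.157% of the windows. KD-only and shared peaks held both motifs at shares within each other's intervals (2.09%, 1.47 to 2.88, of shared CT peaks for the pentamer), and CT-only peaks held both at lower shares. A match is only a match of letters and was not tested as a binding site.

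Peaks of both lists were intergenic more often than the genome. Gene features were read at the peak centre for the peaks on annotated sequences, where 38.4% of the known bases are intergenic, 53.5% intronic, 1.08% coding and 3.81% within 1 kb of a gene start. Of shared input-free CT peaks 75% (72.8 to 77.1) were intergenic and of KD-only peaks 82.2% (79.7 to 84.6). For CT-only peaks the share was 61.0% (58.8 to 63.2), and 71.8% (69.6 to 74.0) without those in coding exons. Introns held 22% of shared, 15.7% of KD-only and 21.7% of CT-only peaks, the last without coding exons. The centre was inside a gene for 26.2% (25.1 to 27.4) of all CT and 19.3% (18.2 to 20.5) of all KD peaks, and for 25.4% and 21.2% of the input-free peaks outside coding exons.

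**Figure D4:**
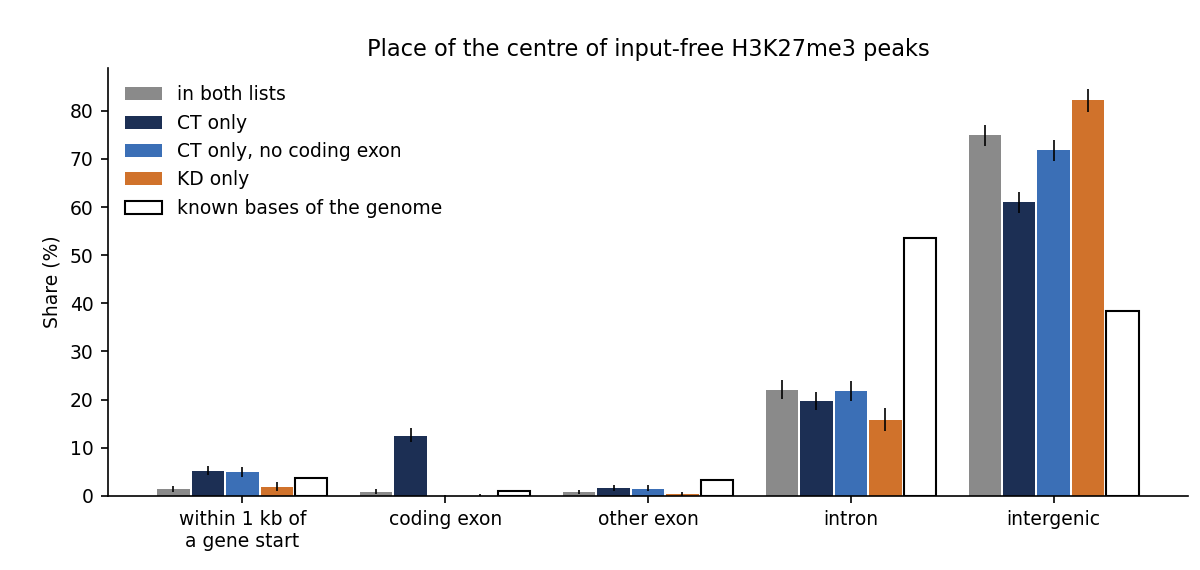
Share of input-free H3K27me3 peaks (vertical axis, percent) whose centre lies in each gene feature, with exact 95% intervals, beside the share of the known bases of the genome. CT-only peaks reach 12.5% in coding exons, while KD-only and shared peaks are most often intergenic (82.2% and 75%).

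The distance to the nearest gene start followed the same order. Its median was 317 kb for shared CT peaks, 676 kb for KD-only peaks and 74.2 kb for CT-only peaks, or 149 kb without coding exons. Peaks without repeated bases lay much closer: outside coding exons, the CT-only ones had a median of 6.12 kb and the KD-only ones of 8.89 kb. Within 1 kb of a gene start were the centres of 82 of 1660 CT-only peaks outside coding exons (4.94%, 3.95 to 6.09) and of 15 of 963 KD-only peaks (1.56%, 0.874 to 2.56). Counted over genes, and with peaks in coding exons included, 0.324% of protein-coding genes (65) had an input-free CT peak within 1000 bp of the start. For KD peaks the share was 0.0449% (9).

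Of the unrepeated peaks outside coding exons on annotated sequences, 51 of 225 CT-only peaks were centred within 1 kb of a gene start. Of the KD-only ones 4 of 45 were (8.89%, 2.48 to 21.2). Of these, 25 CT-only peaks and 1 KD-only peak were nearest to the start of a protein-coding gene. The peak near KCNN1, a calcium-activated potassium channel gene, was the widest (431 bp, 410 bp from the start). Signalling genes had them as well. The peak at SHH, the hedgehog ligand, was 272 bp wide at chr7:155811377-155811648, 950 bp from the start. That at WNT7B, a Wnt ligand, was 306 bp wide at chr22:45977583-45977888, 574 bp from the start. The peak at CCND2, a cyclin of the G1 phase, was 295 bp wide and lay 557 bp from the start, and that at POU4F1 was 299 bp wide and 748 bp away. Peaks at BIK, which promotes cell death, the sodium channel gene SCNN1G and the cadherin gene CDH6 were 279, 268 and 266 bp wide. The 1 KD-only peak nearest to a protein-coding start was a peak of 146 bp, 52 bp from the start of SLC22A25, a transporter gene. The CT-only names are among the widest of the 51, while the SLC22A25 peak is the narrowest of the 4 KD-only peaks. All were chosen after their values were seen.

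Of the 51, 35 overlapped an H3K4me3 peak of CT and 40 one of KD, and 0 an H3K9me3 peak of CT. H3K4me3 is common at gene starts in these lists. Of all protein-coding genes, 66.5% had an input-free H3K4me3 peak within 1000 bp of the start in CT and 67.3% in KD. The overlap is therefore not read as a trait of the 51 peaks. The peaks at KCNN1, SHH, POU4F1, BIK, SCNN1G and CDH6 overlapped H3K4me3 in both conditions, and those at WNT7B and CCND2 in neither. The nearest KD H3K27me3 peak lay at least 319742 bp away from each of these 8 peaks. The 51 peaks had 52.0% G and C and a ratio of observed to expected CG of 0.51, against 42.6% and 0.39 for all CT-only peaks outside coding exons. Those without a repeated base, near a start or not, had 49.4% and 0.39. Of all 225 unrepeated CT-only peaks outside coding exons on annotated sequences, 91 were intronic (40.4%, 34.0 to 47.2), 73 intergenic and 51 near a start. Introns make up 53.5% of the known bases and stretches within 1 kb of a gene start 3.81%. The intronic share was thus not above that of the genome.

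Among the other gene lists, again with coding exons included, counts were small in both conditions. One of 33 genes for Polycomb subunits and H3K27 demethylases had an input-free peak in CT, BMI1, a subunit of Polycomb repressive complex 1, and 0 had one in KD. Of 246 zinc finger genes of chromosome 19, 3 had one in CT (ZNF420, ZNF585A and ZNF404) and 2 in KD (ZNF44 and ZNF808). Of 400 olfactory receptor genes, which are silent outside the nose, 3 had one in CT and 0 in KD, which allows up to 0.75%. The share of the olfactory receptor genes in CT (0.75%, 0.155 to 2.18) lay below the 2.93% of all protein-coding genes, and no list had an interval above that value. A longer gene has more room for a peak by this measure, and gene length was not taken into account.

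The widest input-free peak of both lists lay on the coding exon of THAP9, a gene related to the P element transposase (chr4:82916961-82918908, 1948 bp in CT). It held no repeated base and overlapped peaks of H3K4me3, H3K9me3 and CTCF in both conditions. The shared peak on HRNR, the skin barrier protein hornerin (chr1:152215730-152216326), was 597 bp wide. The widest CT-only peaks were 2 of 1271 and 1251 bp on BRCA1, and others of 1081 bp on BARD1, 885 bp on BRCA2 and 868 bp on PALB2, each of which overlapped an H3K4me3 peak of CT and none of KD. The widest KD-only peak, 472 bp, is the satellite peak of chromosome 1 shown above, which overlapped CTCF peaks of both conditions. The next in width, 445 bp at chr21:8242193-8242637, lay 13 bp from a CT peak. Outside coding exons the widest CT-only peak had 704 bp, against the 472 bp of the widest KD-only peak.

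CTCF peaks lay near most H3K27me3 peaks when CTCF was called on unmasked reads. In KD the share that overlapped a KD CTCF peak was 91.1% (89.8 to 92.3) for peaks on input. It was 61.5% (59.7 to 63.3) for input-free peaks and 13.9% (6.87 to 24.1) for input-free peaks without a repeated base. The share that other sequence with as many repeats would give was not tested. A CTCF peak of the same condition overlapped 57.1% (55.8 to 58.3) of all CT peaks and 74.3% (73.0 to 75.5) of all KD peaks, and lay within 10 kb of 85.0% (84.1 to 85.9) and 91.4% (90.6 to 92.2). Among input-free peaks, CTCF overlap was 65.1% (62.8 to 67.3) for shared CT peaks, 49.8% (46.6 to 52.9) for KD-only peaks and 27.1% (25.2 to 29.1) for CT-only peaks. Without coding exons the last share was 31.5% (29.3 to 33.7), still below that of KD-only peaks. The CTCF list of KD is longer than that of CT (47632 and 42978 peaks). With the CT list of CTCF for both, CT-only peaks outside coding exons kept 31.5% and KD-only peaks outside coding exons had 44.9% (41.8 to 48.0). With CTCF called on repeat-masked reads, 16% (15 to 16.9) of CT and 13.6% (12.7 to 14.6) of KD peaks had a CTCF peak within 10 kb, and the order of the conditions turned. So did that of the classes, with 16.9% (15.2 to 18.8) of CT-only peaks outside coding exons and 9.38% (7.65 to 11.3) of KD-only peaks. Reads mapped to the masked genome cannot be placed inside masked repeats. Repeated bases were 85.3% of those under all CT peaks and 93.5% under all KD peaks. The labels also give a stricter peak threshold for the masked CTCF lists. The turn cannot be told apart from these differences between the CTCF lists.

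The H3K27me3 peaks of 1 list overlapped CTCF peaks of either condition. Of KD-only H3K27me3 peaks, 32.3% overlapped a CTCF peak in both conditions, 17.5% one of KD only and 12.5% one of CT only. CT-only H3K27me3 peaks outside coding exons overlapped CTCF in both conditions in 16.6%, CTCF of KD only in 13.7% (12.1 to 15.4) and CTCF of CT only in 14.8% (13.2 to 16.6). No CTCF peak of either condition overlapped 37.7% of the former and 54.8% of the latter.

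**Figure D5:**
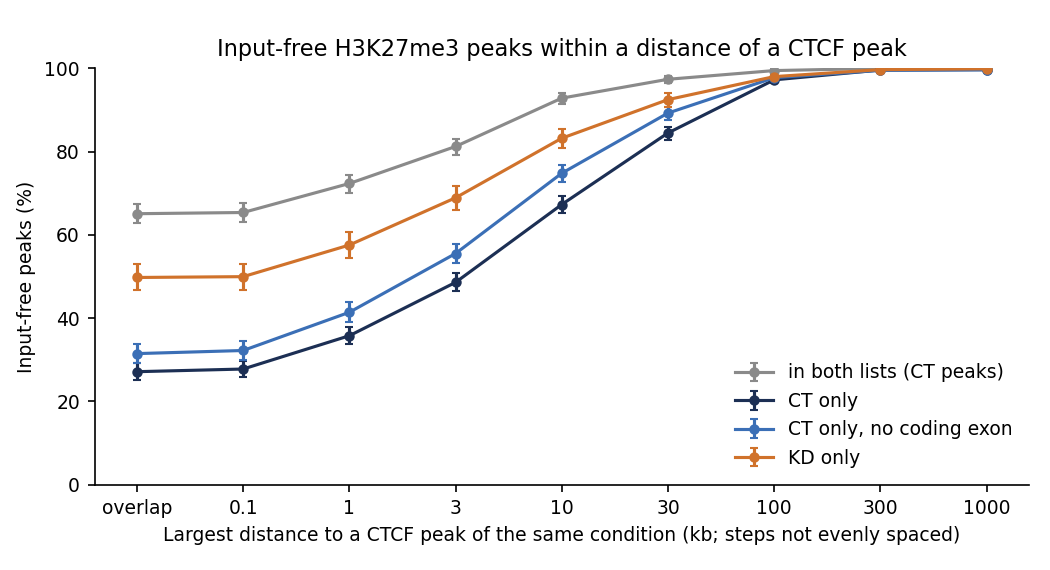
Share of input-free H3K27me3 peaks (vertical axis, percent, with exact 95% intervals) within a given distance of a CTCF peak of the same condition called on unmasked reads (horizontal axis, kb, uneven steps). Shared peaks start highest at overlap (65.1%), KD-only peaks lie between (49.8%) and CT-only peaks are lowest (27.1%, or 31.5% without coding exons); at 100 kb all lie between 97.2% and 99.5%.

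Seen from the CTCF peaks, and with all H3K27me3 peaks counted, those in coding exons included, the flanks of 10 kb on either side held an H3K27me3 CT peak for 6.72% (6.39 to 7.07) of the 21416 CTCF peaks found in CT only and a KD peak for 5.67% (5.37 to 5.99). For the 26083 CTCF peaks found in KD only the shares were 7.96% (7.63 to 8.29) and 6.77% (6.46 to 7.08). For the 21562 CT peaks of CTCF found in both they were 13.3% (12.9 to 13.8) and 11.9% (11.4 to 12.3). KD shares were lower around each class, with or without CTCF in KD, beside a KD list of 0.80 times as many peaks. Most flanked CTCF peaks had H3K27me3 on one side only. The shares ran from 54.1% (CT peaks around CTCF in both) to 70.6% (CT peaks around CTCF in CT only). Few CTCF peaks were flanked at all, and the one-sided share that such sparse peaks give by themselves was not tested.

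Among input-free peaks, other marks overlapped the shared ones most, while CT peaks on input had higher shares still (93.1% with H3K4me3 and 79.8% with H3K9me3 of CT). H3K9me3 peaks of the same condition overlapped 64% (61.7 to 66.2) of shared CT peaks and 71.0% (68.8 to 73.1) of shared KD peaks, against 36.6% (33.7 to 39.7) of KD-only and 32.3% (30.1 to 34.5) of CT-only peaks outside coding exons (28.1% of all CT-only peaks). H3K4me3 peaks of the same condition overlapped 71.9% (69.7 to 74.0) of shared CT and 69.6% (67.3 to 71.7) of shared KD peaks. They overlapped 33.8% (31.6 to 36.1) of CT-only peaks outside coding exons, 40.3% of all CT-only peaks and 20.1% (17.7 to 22.7) of KD-only peaks. Most input-free peaks shared by the H3K27me3 lists were thus listed for the active mark as well. For the unrepeated CT-only peaks outside coding exons the shares with a CT peak were 48.1% (41.5 to 54.7) for H3K4me3 and 0.429% (0.0109 to 2.37) for H3K9me3.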

How the data were processed

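ChIP-seq peak positions were used, and the members and gene lists were chosen with earlier results of these data known. According to the study's methods and the labels, the authors mapped single-end Ion Torrent reads end-to-end with bowtie2 to hg38 and called peaks for each library with MACS2. The labels give a p threshold of 0.001 for H3K27me3 and input, and the methods give another, with a minimum length of 200 that 2835 CT and 2458 KD peaks do not reach. The deposited lists hold 3 columns, with no score, fold, coverage or read count, so the depth behind a peak and its height are unknown, and starts were read as counted from 0. Overlaps, distances and merging used bedtools 2.31.1, with tables in Python 3.11.15 and exact binomial intervals in SciPy 1.17.1. Genes came from GENCODE release 44, in the order promoter (within 1 kb of a start), coding exon, other exon, intron, intergenic. Copies of 24-mers were counted in hg38 on both strands. RepeatMasker classes were not used here. The rule for named peaks took the 5 widest input-free peaks of each class and the 3 widest without repeated bases, with members of the gene lists. Measures were checked on simulated data. The authors' exclusive CTCF lists and masked overexpression CTCF peaks were not used here, and single values of some genes are not reported here.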

Additional observations from a re-analysis of the deposited data

Results flagged for a closer look

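Outside the H3K27me3 lists, 289 of the 648 coding exons of the 26 genes with 3 or more CT-only H3K27me3 peaks in coding exons had an H3K4me3 peak in CT, and 0 had an input peak. In KD 28 of them had an H3K4me3 peak. The H3K4me3 lists were used only beside the H3K27me3 comparison, and the part of either library in this pattern was not tested.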

How the results depend on the processing

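Of 58 recomputed values, 31 stayed within the error or fold set for them, 25 moved and 2 reversed; leaving out coding exons was chosen after seeing the data. CT peaks matched in KD (61.7%) were 45.8% input-free, 66.1% for the widest 3000 peaks, 56.6% for peaks of at least 200 bp, 64.7% without coding exons, 49.4% without both, 58.9% at 0.5 of both peaks and 65.8% within 1000 bp. The share of KD peaks found in CT (76.9%) was 62.9% input-free, 65.9% for the widest 3000, 62.8% without input and coding exons, 73.6% at 0.5 of both peaks and 79.9% within 1000 bp. The median width difference of -7 bp was -25 bp for the widest 3000 and -2 bp from 200 bp. The input overlap, 5.74 percentage points higher in KD, was 8.73 from 200 bp and reversed to -1.37 for the widest 3000. The difference in repeated bases (8.12 points) was 15.5 input-free and 3.41 without coding exons. The share inside genes (-6.89 points) was -10.1 input-free, -2.93 without coding exons and -4.26 without both. The share within 10 kb of CTCF (6.36 points) was 8.10 for the widest 3000, 9.52 from 200 bp, 2.97 without coding exons, 2.54 without both and 15.4 at 1 kb, and reversed to -2.35 with repeat-masked CTCF. Reads mapped to the masked genome leave out CTCF inside masked repeats. The ratio of peak numbers stayed between 0.73 and 0.84; for the widest 3000 it is 1 by construction and was not recomputed. The causes were not tested. No paired analysis was possible because each condition has 1 library and the result comes from no test. Without scores, a stricter threshold could only be approached by width, and repeated reads placed by the aligner cannot be told from unique ones here.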
